A study of Mus musculus with 2 samples.

Results

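The miR-99/100 and miR-125 families of J1 mouse embryonic stem (ES) cells were described from 6 hairpins, Mir99a, Mir99b, Mir100, Mir125a, Mir125b-1 and Mir125b-2, out of 1174 miRNA hairpins of the GENCODE vM21 annotation of GRCm38. They were chosen by name, and every sequenced tag that matched one of them without mismatch was counted. The cells were cultured without feeder cells on gelatin, in medium with Knockout Serum Replacement and LIF. One culture was given 1 mM AICAR, which activates the energy sensor AMPK once inside cells, for 24 h, and the other an equal volume of DMSO (0 mM AICAR). The title of the control, J1_U, does not name the solvent, and its treatment label, DMSO, was followed. There was 1 small RNA library per condition, so no difference has a replicate check, and the tests compare the libraries and not the conditions.

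A miRNA hairpin is cut by Drosha and Dicer into a 5p and a 3p strand, and the bases at positions 2 to 8 of the loaded strand, its seed, pair with target mRNAs. In mammals these families lie with a let-7 gene in clusters that can be transcribed as one precursor, or polycistron. miR-125 is the vertebrate counterpart of the worm lin-4 and represses Lin28, whose protein blocks let-7 processing. miR-99 and miR-100 repress Mtor, and let-7 accumulates as ES cells differentiate.

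The mature sequences are shown because the families are defined by their seeds, and because the closest members are hard to tell apart. They are from RefSeq (GRCm38.p6), are written 5′ to 3′, and have the seed in capitals. The 5p strands of the miR-99/100 family share the seed ACCCGUA:
miR-99a-5p: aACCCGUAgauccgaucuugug
miR-99b-5p: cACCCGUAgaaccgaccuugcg
miR-100-5p: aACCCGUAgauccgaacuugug

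With positions counted from 1 at the 5′ end, miR-100-5p differed from miR-99a-5p only by U16A. miR-99b-5p differed from miR-99a-5p by A1C, U11A, U16C and U21C, so its tags could not be taken for those of the other members through a single sequencing error. The miR-125 family shares the seed CCCUGAG, which is also the seed of miR-351-5p:
miR-125a-5p: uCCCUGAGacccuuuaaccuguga
miR-125b-5p: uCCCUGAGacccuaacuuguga
miR-351-5p: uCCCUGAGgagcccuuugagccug

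miR-125a-5p and miR-125b-5p are identical over their first 13 bases. Mir125b-1 and Mir125b-2 encode the same miR-125b-5p, so its tags cannot be assigned to one of these hairpins. Of the 3p strands, miR-99b-3p was the abundant one, and its seed AAGCUCG is that of miR-99a-3p:
miR-99b-3p: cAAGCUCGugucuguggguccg
miR-99a-3p: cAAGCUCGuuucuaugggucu

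All 3 polycistrons lie on the plus strand. On chromosome 17, Mir99b (chr17:17830188-17830257), Mirlet7e (chr17:17830352-17830444) and Mir125a (chr17:17830812-17830879) lie within 692 nt. Mir99b and Mirlet7e are in an intron of Spaca6, and Mir125a overlaps an annotated exon of this gene. On chromosome 16, Mir99a (chr16:77598936-77599000) and Mir125b-2 (chr16:77646273-77646343) flank Mirlet7c-1 in introns of the noncoding gene Mir99ahg over 47408 nt. On chromosome 9, Mir100 (chr9:41531425-41531504) and Mir125b-1 (chr9:41581926-41582002) flank Mirlet7a-2 in introns of the noncoding gene 3110039I08Rik over 50578 nt. Exons of other annotated genes overlap some of these hairpins. On the same strand they are C130023A14Rik for Mir125b-2 and Gm28119 for Mir125b-1, and on the opposite strand Gm48742 for Mir100.

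The DMSO library held 18870345 clean reads and the AICAR library 21091226, of which 11.6% and 15.7% matched a miRNA hairpin. Tags shorter than 21 nt made up 9.49% of the hairpin reads with DMSO and 3.81% with AICAR. Values are given as reads per 1000000 clean reads (RPM), where 1 read is 0.0530 RPM with DMSO and 0.0474 RPM with AICAR. The cell type label was checked with the miR-290 and miR-302 clusters, which mark mouse ES cells. Of 11 hairpins listed, the 10 found in the annotation held 31407 RPM with DMSO and 54552 RPM with AICAR, with reads for 10 and 9 of them. Mir292a was not found under that name, so the sum leaves out its cluster's miR-292 arms, which were read. miR-292-3p, for example, had 1355 RPM with DMSO and 2198 RPM with AICAR. The sum was carried by the miR-290 hairpins, and the 4 miR-302 hairpins had low values that were lower with AICAR, as for Mir302a with 10.4 RPM with DMSO and 2.37 RPM with AICAR. Hairpins of other cell types were also read. A list typical of fibroblasts and mesenchymal cells summed to 210 and 209 RPM with DMSO and AICAR libraries, with Mir214 at 0 reads and 6 of 7 hairpins detected. A neuronal list summed to 278 and 429 RPM with 6 of 6 detected. A muscle list summed to 161 and 205 RPM with 5 of 5 detected, and a blood list to 16.5 and 15.8 RPM with 2 of 3 detected and Mir223 at 0 reads. Whether reads from other cells contribute to the family members was not tested.

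Nearly all reads of the families came from the polycistron on chromosome 17. All 6 hairpins together held 7832 reads with DMSO and 11666 with AICAR (415 and 553 RPM), which was 0.359% and 0.352% of the hairpin reads. Mir99b and Mir125a held 98.5% of them with DMSO (95% Wilson interval 98.2% to 98.7%) and 98.1% with AICAR (97.9% to 98.4%). These and all other intervals cover the counting error of reads only, and not the spread between cultures. PCR copies of one molecule are read more than once, so the intervals can be too narrow even for that.

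miR-99b-5p was the most abundant member, with 6188 reads (328 RPM) with DMSO and 9013 reads (427 RPM) with AICAR. It made up 99.8% of the miR-99/100 family's 5p reads in each library. Ordered by summed RPM it was number 51 of the 508 hairpin arms that reached 1 RPM in either library, with a fold change (AICAR over DMSO) of 1.30 (95% interval 1.26 to 1.35) relative to clean reads and 0.958 relative to hairpin reads. The other arms nearest to it in log2 RPM over both libraries were miR-30d-5p, miR-29a-3p and miR-378a-3p, at distances of 0.11, 0.17 and 0.31. miR-30d-5p had 330 RPM with DMSO and 396 RPM with AICAR.

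The other family members of this cluster were read less often than miR-99b-5p. miR-125a-5p had 785 reads (41.6 RPM) with DMSO and 1425 reads (67.6 RPM) with AICAR. miR-99b-3p, the partner strand of miR-99b-5p, had 695 reads (36.8 RPM) with DMSO and 954 (45.2 RPM) with AICAR. miR-125a-3p was read 44 times with DMSO and 54 times with AICAR (2.33 and 2.56 RPM). In the DMSO library, miR-99b-5p outnumbered miR-125a-5p 7.88 times, although their hairpins lie in one cluster, and with AICAR 6.32 times. Ligation and amplification differ between sequences, so such a ratio between miRNAs also holds the library preparation.

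miR-125b-5p, encoded by both other polycistrons, had 106 reads (5.62 RPM) with DMSO and 198 reads (9.39 RPM) with AICAR. Thus miR-125a-5p made up 88.1% of the miR-125 family's 5p reads with DMSO (95% Wilson interval 85.8% to 90.1%) and 87.8% with AICAR (86.1% to 89.3%). The strands that identify a single hairpin of the other polycistrons were almost unread. miR-125b-1-3p had 3 reads with DMSO and 2 with AICAR, whereas miR-125b-2-3p had 0 in both, which allows up to 0.159 RPM and 0.142 RPM (3 reads). A further 2 reads of 23 nt with DMSO ran into a base that only the Mir125b-1 hairpin has next, which could also be an added base.

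miR-99a-5p had 4 reads with DMSO and 1 with AICAR. miR-100-5p had 6 reads with DMSO and 17 with AICAR (0.318 and 0.806 RPM). miR-100-3p was read once, with AICAR, and miR-99a-3p was not read. In the 22 nt tags, the base that separates miR-100-5p from miR-99a-5p was read as A or U only, and 0 reads had C or G at position 16. So few reads could hardly hold such an error, so this 0 tells nothing about the miR-99a-5p reads. Whether they arose from miR-100-5p was not tested. Over the first 19 positions of miR-99b-5p, reads with a single substitution were 0.686% of the reads of its most abundant tag with DMSO and 0.711% with AICAR.

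**Figure D1:**
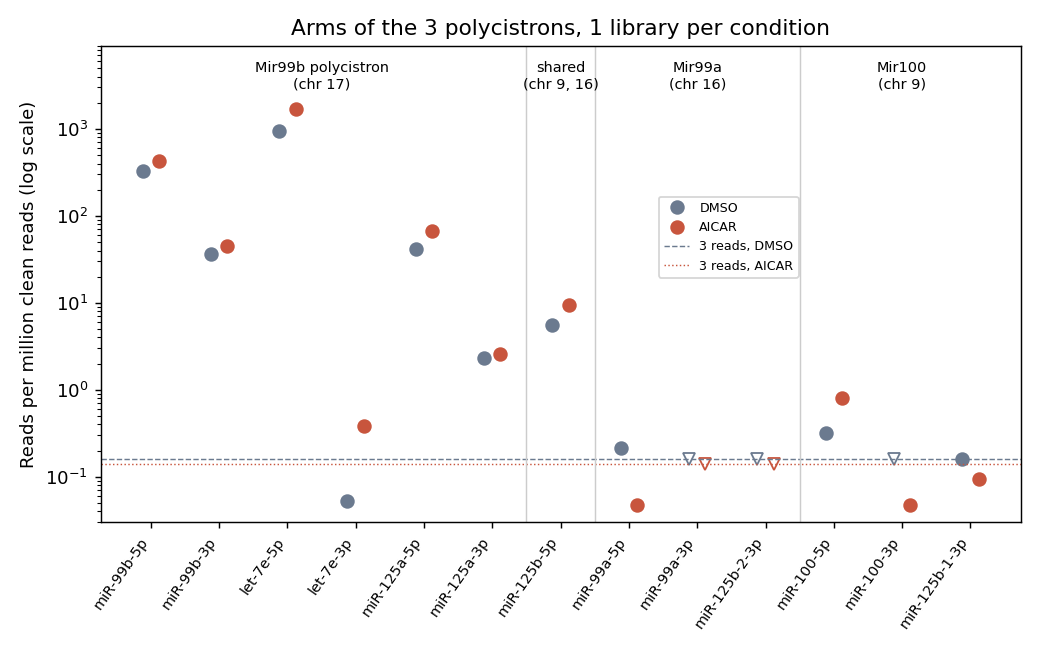
Level of the 5p and 3p arms of the family members in the 3 polycistrons, and of let-7e, in RPM (log axis). There is 1 point per library, DMSO in grey and AICAR in red. Dashed lines mark 3 reads and open triangles on them mark arms with 0 reads. The sequences let-7c-5p and let-7a-5p, which are also encoded elsewhere in the genome, are not drawn. miR-99b-5p (328 and 427 RPM) lies far above miR-100-5p (0.318 and 0.806 RPM), and let-7e-5p of the same cluster is higher still.

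The let-7 sequences encoded in the clusters were read at higher levels than the member strands, which only for let-7e-5p can be traced to the cluster. let-7e-5p, from between Mir99b and Mir125a, had 17861 reads (947 RPM) with DMSO and 35934 reads (1704 RPM) with AICAR, a fold change of 1.80 (95% interval 1.77 to 1.83). let-7c-5p, encoded beside Mir99a, had 3239 RPM with DMSO and 5160 RPM with AICAR, and let-7a-5p, encoded beside Mir100, had 1810 and 3054 RPM. Both of these sequences are also encoded by a hairpin elsewhere in the genome, so they do not measure the clusters on chromosomes 16 and 9.

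The comparison of AICAR with DMSO asks which miRNAs differ after the treatment. With the study's thresholds, a change of 2-fold or more either way (2 or 0.5) at p up to 0.01, 0 of the 5 member arms with at least 1 RPM were called in either direction. Over all 508 arms 11.0% were called higher and 9.45% lower (Fisher's exact test of reads, two-sided). At p at most 0.01 and any fold, 4 of the 5 arms were higher with AICAR and 0 lower, compared with 35.0% higher and 24.8% lower over all arms. Relative to hairpin reads, p was 6.248e-05 for miR-125a-5p (fold change 1.19) and 0.0893 for miR-125b-5p (1.23), by Fisher's exact test. By the same Fisher's exact test it was 0.0101 for miR-99b-5p (0.958), 0.0415 for miR-99b-3p (0.903) and 0.303 for miR-125a-3p (0.807). How many of all arms pass p alone with this denominator was not counted. With the 2-fold thresholds added, that denominator gave 21 of the 508 arms higher and 112 lower, and 0 member arms either way. The median fold change was 1.30 over the 5 arms and 1.10 over all arms. Fisher's exact test takes no account of the spread between cultures. With an assumed coefficient of variation of 0.2 between replicates, the lowest p of the 5 arms was 0.0940 by edgeR's exact test, for miR-125a-5p. At the study's thresholds that test called 33 of the 508 arms higher and 33 lower, and 0 member arms.

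Within the miR-125 family both sequences were higher with AICAR relative to clean reads. miR-125a-5p was 1.62 times higher (95% interval 1.49 to 1.77) and miR-125b-5p 1.67 times (1.31 to 2.14), with p = 1.143e-28 and 1.513e-05 by Fisher's exact test. Relative to hairpin reads the fold changes were 1.19 for miR-125a-5p (p = 6.248e-05, Fisher's exact test) and 1.23 for miR-125b-5p, which then did not pass (p = 0.0893, Fisher's exact test). The values relative to clean reads were above those of 78.1% and 80.3% of all arms. miR-351-5p, the arm outside the family with the same seed, had 37 reads with DMSO and 62 with AICAR (fold change 1.499, 0.982 to 2.32). The difference of miR-351-5p did not pass the threshold (p = 0.0556, Fisher's exact test). The miR-125 family's 5p reads together numbered 891 with DMSO and 1623 with AICAR (fold change 1.63, 1.501 to 1.77, and 1.198 relative to hairpin reads).

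The fold changes of the miR-99b strands were smaller, and their direction was reversed with hairpin reads as denominator. With TMM and median-ratio scaling, which rescale the libraries by their arm counts, it was not. These gave 1.22 and 1.19 for miR-99b-5p, and 1.15 and 1.12 for miR-99b-3p. Relative to clean reads miR-99b-5p was 1.30 times higher with AICAR (p = 1.275e-58, Fisher's exact test), but 0.958 times as high relative to the reads on any miRNA hairpin (p = 0.0101, Fisher's exact test). That denominator moved the median log2 fold change of all arms from 0.13 to -0.31. miR-99b-3p was 1.23 times higher (1.11 to 1.36, p = 3.754e-05, Fisher's exact test), a ratio that became 0.903 relative to hairpin reads (p = 0.0415, Fisher's exact test). For miR-125a-3p (1.10, 0.724 to 1.67, p = 0.686, Fisher's exact test) no difference was detectable at this depth, nor relative to hairpin reads (0.807, p = 0.303, Fisher's exact test). No difference was detectable either for miR-100-5p (2.53, 0.954 to 7.85, p = 0.0582, Fisher's exact test), which was below 1 RPM in both libraries.

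**Figure D2:**
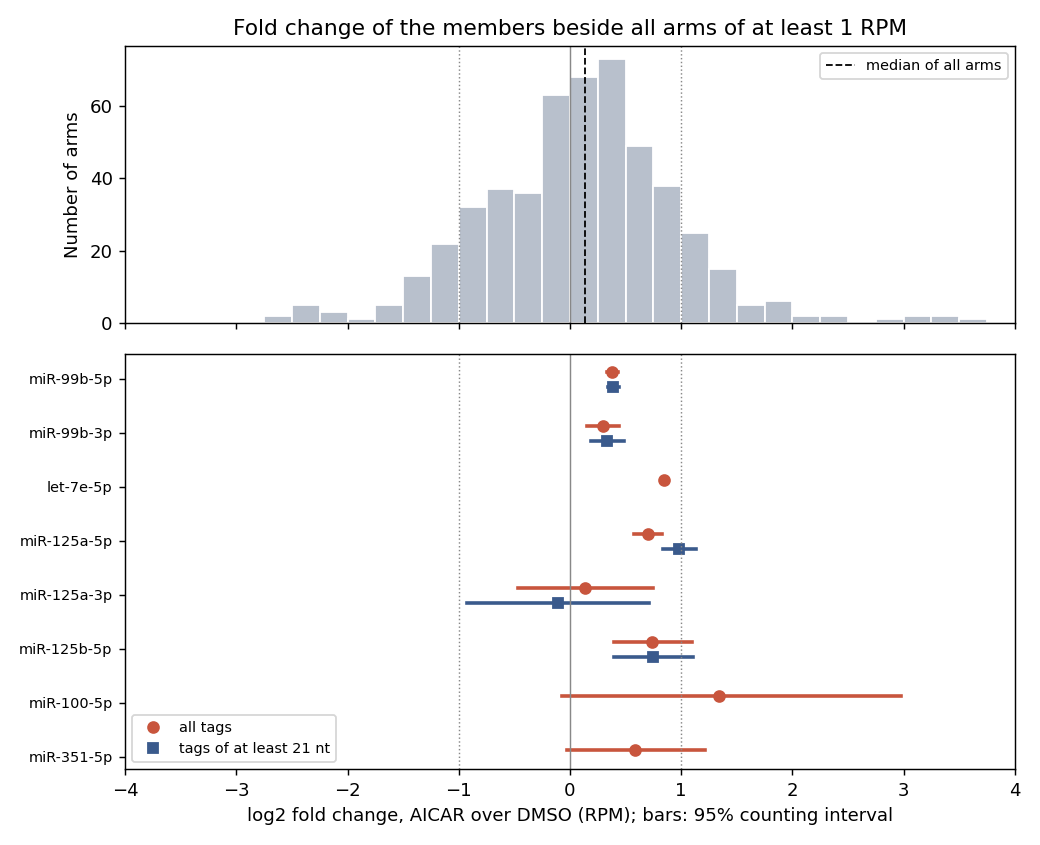
Distribution of the log2 fold change (AICAR over DMSO) of the 508 arms (upper panel) and the log2 fold change of the 5 tested member arms, miR-100-5p, let-7e-5p and miR-351-5p (lower panel; member arms with 5 or fewer reads in all are not drawn), with all assigned tags (circles) and, for the tested member arms, tags of at least 21 nt (squares); bars are 95% counting intervals and dotted lines the 2-fold thresholds. The circles drawn lie right of 0 relative to clean reads, whereas both miR-99b strands and miR-125a-3p fall below it relative to hairpin reads (0.958, 0.903 and 0.807), and miR-125a-5p moves from a fold change of 1.62 to 1.97 when short tags are left out.

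Between the 3 polycistrons no difference in response was detectable. Mir99b and Mir125a together had 7713 reads with DMSO and 11447 with AICAR (fold change 1.33, 1.29 to 1.37, but 0.976 relative to hairpin reads). Tags found only on Mir100 or Mir125b-1 numbered 11 with DMSO and 20 with AICAR (1.63, 0.743 to 3.76), and tags found only on Mir99a or Mir125b-2 numbered 4 and 1 (0.224, 0.00454 to 2.26). In 3 pairwise comparisons by Fisher's exact test, adjusted over the 3 pairs, the fold change of the chromosome 17 cluster was 0.816 times that of the chromosome 9 cluster (0.353 to 1.79, adjusted p = 0.715). It was 5.94 times that of the chromosome 16 cluster (0.587 to 292, adjusted p = 0.248). The ratio of chromosome 16 to chromosome 9 was 0.138 (0.00266 to 1.71, adjusted p = 0.248, Fisher's exact test). The intervals are wide because the clusters on chromosomes 16 and 9 had few reads that belong to them alone.

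Within the chromosome 17 cluster the mature strands did not differ between the libraries to the same extent. These comparisons were chosen after the values were seen and need no denominator. The reads of miR-125a-5p relative to those of miR-99b-5p were 1.25 times higher with AICAR (95% interval 1.13 to 1.37, adjusted p = 4.490e-06, Fisher's exact test over 3 comparisons). Those of let-7e-5p relative to miR-99b-5p were 1.38 times higher (1.33 to 1.43, adjusted p = 2.359e-64, Fisher's exact test). With tags of at least 21 nt these ratios were 1.51 and 1.38. let-7e-5p relative to miR-125a-5p was 1.11 times higher (1.01 to 1.21, adjusted p = 0.0240, Fisher's exact test), which did not pass 0.01, and was 0.916 times as high (0.824 to 1.02) with tags of at least 21 nt.

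Both strands of a hairpin were read in nearly the same proportion in both libraries. The 5p strand was the abundant one for each hairpin with reads on both arms. It made up 89.9% of the Mir99b reads with DMSO (95% Wilson interval 89.2% to 90.6%) and 90.4% with AICAR (89.8% to 91.0%). For Mir125a it made up 94.7% (92.9% to 96.0%) with DMSO and 96.3% (95.3% to 97.2%) with AICAR. For Mir125b-1 and Mir125b-2 together it held 106 of 109 reads with DMSO and 198 of 200 with AICAR. None of these 3 shares differed at an adjusted p of 0.01 (adjusted p = 0.448, 0.154 and 0.541, Fisher's exact test), whereas over 266 hairpins 18.4% had a higher and 10.9% a lower 5p share with AICAR.

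The 5′ ends, which set the seed, were uniform. Of the miR-99b-5p reads 99.1% with DMSO and 99.3% with AICAR began at the most frequent start, and for miR-99b-3p, miR-125a-5p and miR-125b-5p the share was between 99.1% and 100% in both. The medians over the 346 arms with at least 50 reads in each library were 97.97% and 98.37%. None of the 4 member arms passed the test of this share, which 6.65% of the arms passed upward and 3.76% downward. miR-125a-3p, with 44 and 54 reads, began 1 base later in 9.09% of its reads with DMSO and 11.1% with AICAR, which gives these reads another seed.

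The 3′ ends varied, and most for miR-125a-5p. Its reads spread over tags of 20, 22, 23 and 24 nt, which held 217, 166, 184 and 109 reads with DMSO and 228, 447, 378 and 235 with AICAR. Per clean read, no difference was detectable in the 20 nt tags (fold change 0.940, 0.777 to 1.14), whereas the 22 nt tags differed 2.41-fold (2.01 to 2.90), the 23 nt tags 1.84-fold (1.54 to 2.20) and the 24 nt tags 1.93-fold (1.53 to 2.44). Which length was the most abundant differed between the libraries: 20 nt with DMSO and 22 nt with AICAR. The RefSeq mature form is the 24 nt one. The reference for the ends, which is the most read tag when both libraries are summed, has 22 nt:
miR-125a-5p, reference tag: uCCCUGAGacccuuuaaccugu

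Tags shorter than 21 nt made up 32.0% of the miR-125a-5p reads with DMSO and 17.3% with AICAR. Of its reads, 41.4% (95% Wilson interval 38.0% to 44.9%) ended before the end of the reference tag with DMSO, and 25.5% (23.3% to 27.8%) with AICAR. The share fell by 15.9 percentage points (adjusted p = 1.166e-13, Fisher's exact test), and the mean 3′ end lay 0.424 nt further out, a shift larger than that of 91.6% of the arms. The same direction was general: 286 of the 346 arms had a later mean end with AICAR, and the share of reads ending early was lower for 35.5% of the arms and higher for 1.73%. Of the 325 early-ending reads with DMSO most were tags under 21 nt, and without such tags, which removes them by construction, the difference was -3.93 percentage points (adjusted p = 0.0655, Fisher's exact test).

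miR-99b-5p, in contrast, was read as 22 nt tags in 72.5% of the DMSO and 76.0% of the AICAR reads. The share ending early was 26.1% with DMSO and 23.0% with AICAR (adjusted p = 5.704e-05, Fisher's exact test). The 3p strand of the same hairpin had 344 reads of 22 nt with DMSO and 375 with AICAR, whereas its 23 nt tags had 223 and 435 reads (fold change 1.75, 1.48 to 2.06). The 22 nt length was thus the more frequent with DMSO and the 23 nt length with AICAR. Its share ending early, 18.3% with DMSO and 14.9% with AICAR, did not pass (adjusted p = 0.125, Fisher's exact test). For miR-125b-5p the share was 12.3% and 7.07% (adjusted p = 0.221, Fisher's exact test).

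**Figure D3:**
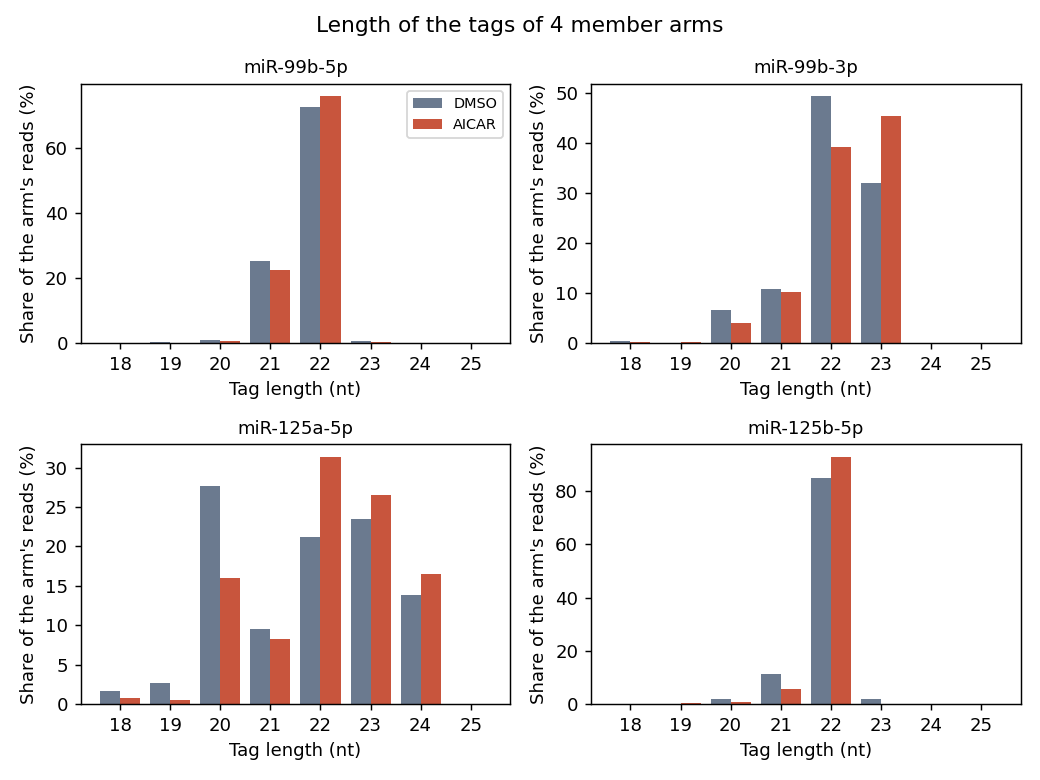
Share of the reads of miR-99b-5p, miR-99b-3p, miR-125a-5p and miR-125b-5p (vertical axes, percent, each from 0) by tag length in nt (horizontal axes), DMSO in grey and AICAR in red. miR-99b-5p and miR-125b-5p are mostly 22 nt long, while miR-125a-5p has separate peaks at 20 nt (217 and 228 reads) and at 22 to 24 nt.

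Tags that matched a hairpin except for 1 to 3 bases added at the 3′ end were counted apart from the members. Such untemplated bases are known to be put on mature miRNAs or their precursors by terminal nucleotidyl transferases. On miR-99b-5p, 1223 of 7357 reads carried them with DMSO (16.6%, 95% Wilson interval 15.8% to 17.5%) and 2493 of 11440 with AICAR (21.8%, 21.05% to 22.56%). On miR-99b-3p the share was 20.8% (18.2% to 23.6%) with DMSO and 28.4% (26.0% to 30.9%) with AICAR. Both shares were higher with AICAR (adjusted p = 2.483e-17 and 0.000278, Fisher's exact test), as for 28.2% of 333 arms, with 2.10% lower. The medians over these arms were 7.69% with DMSO and 10.4% with AICAR.

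Fewer such bases were counted on the miR-125 strands than on the miR-99b strands. An added base equal to the hairpin's next base counts as an exact tag, so the shares can miss additions, unequally between arms. Such a base could end the 23 nt tag of miR-99b-3p (U) or the 24 nt tag of miR-125a-5p (A), which was not tested. On miR-125a-5p they were found in 2.25% of the reads with DMSO (1.43% to 3.53%) and 1.73% with AICAR (1.17% to 2.54%), below the medians of all arms. On miR-125b-5p they were found in 7.08% and 10.4%. Neither difference passed (adjusted p = 0.610 for each, Fisher's exact test). The intervals of miR-99b-5p and miR-125a-5p lay far apart in both libraries, although both come from the same cluster.

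The added bases, examined one by one after the totals were seen, were mainly A and U where 1 base was added. A single U was found on 5.37% of the miR-99b-5p reads with DMSO and 9.27% with AICAR, and on 2.6% and 7.0% of the miR-99b-3p reads. Both shares were higher with AICAR (adjusted p = 7.736e-22 and 3.203e-05, Fisher's exact test), as in 17.4% of the arms, with 0.601% lower. A single A was found on 7.5% of the miR-99b-5p reads with DMSO and 8.9% with AICAR (adjusted p = 0.00476, Fisher's exact test), a test passed upward by 9.31% of the arms and downward by 2.10%. For miR-99b-3p a single A was on 8.11% and 10.8% of the reads, which did not pass (adjusted p = 0.172, Fisher's exact test). The medians over all arms were 1.54% with DMSO and 2.28% with AICAR for U, and 2.35% and 2.76% for A. A tag with such a base can also come from a sequencing error or from another site in the genome, and neither was tested.

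**Figure D4:**
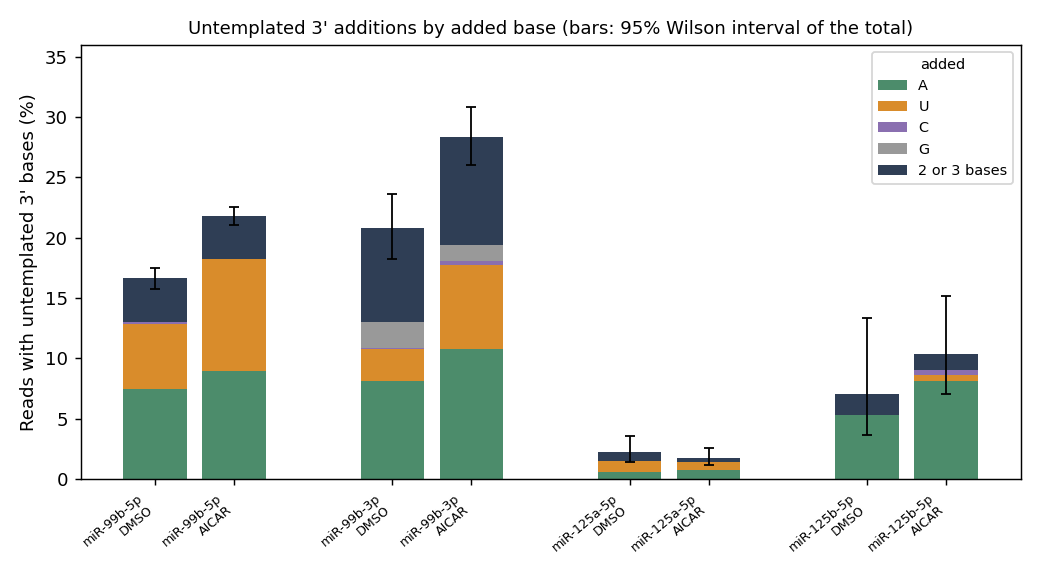
Share of the reads with untemplated 3′ bases (percent, from 0) on 4 member arms, 1 bar per library, stacked by the base added, with 95% Wilson intervals of the total. miR-99b-5p (16.6% and 21.8%) and miR-99b-3p (20.8% and 28.4%) stand above miR-125b-5p and miR-125a-5p, and the part with a single U is larger with AICAR on both miR-99b strands.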

How the data were processed

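Small RNA of J1 ES cells treated with DMSO or AICAR was sequenced, with 1 library per condition. The authors removed low-quality reads, contaminants and reads below 18 nt, merged equal sequences, and deposited one read count per distinct sequence (tag) beside its length, neither normalized nor aligned. The labels name the build mm9, but the tags carry no coordinates.

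From these counts, tags were matched without mismatch to hairpins on GRCm38. On each arm the tag with the most reads was the reference. Tags starting within 2 nt and ending within 4 nt of it were assigned, and copies with the same reference tag were merged. Tags were not screened against other RNAs. Mature sequences were matched by name to RefSeq for 11 member arms.

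Fold changes carry exact binomial and shares Wilson 95% intervals. Reads were tested with a two-sided Fisher's exact test, unadjusted for arms and Benjamini-Hochberg adjusted over all arms or hairpins for shares (threshold 0.01). Named were all member arms, the let-7 arms of the clusters, arms sharing a member's seed, and the 3 arms nearest to miR-99b-5p. Members and lists were chosen with earlier results of these data known. Fold changes, their intervals and the calls were tested on simulated counts, and tag matching on reference tags and random sequences. Tag assignment, shares and additions were not tested in this way. Python 3.11.15, numpy 2.4.6, scipy 1.17.1, matplotlib 3.10.9, R 4.3.3 and edgeR 4.0.16 (TMM, and its exact test with an assumed spread) were used.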

Additional observations from a re-analysis of the deposited data

How the results depend on the processing

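Alternatives for the denominator, tag assignment, tag length, filter, test and p adjustment were tried. Relative to reads on any miRNA hairpin, the fold change was 0.959 for the miR-99/100 family, 0.976 for the chromosome 17 polycistron, 0.958 for miR-99b-5p, 0.903 for miR-99b-3p, 0.807 for miR-125a-3p, 1.19 for miR-125a-5p, 1.23 for miR-125b-5p (p = 0.0893 by Fisher's exact test, no longer under 0.01) and 1.198 for the miR-125 family, and 21 arms were called up and 112 down in place of 56 and 48. The larger share of hairpin reads in the AICAR library sets this shift. With TMM and median-ratio scaling, miR-99b-5p was at 1.22 and 1.19. miR-125b-5p was at 1.56 and 1.52 (p = 0.000175 and 0.000422, Fisher's exact test). With only reference tags, the fold change was 2.42 for miR-125a-5p, 2.21 for the miR-125 family and 0.976 for miR-99b-3p. miR-125a-5p was then the 1 member called up of 4 tested, beside 59 up and 47 down of all 441 arms. Reference tags were set by the reads of both libraries together: the 22 nt tag of miR-125a-5p came after 2 others with DMSO (164 reads against 217 and 184) and first with AICAR (444), so its fold is partly fixed by that choice, and its 23 nt and 20 nt tags gave 1.84 and 0.936. For miR-99b-3p the 23 nt tag, first with AICAR (435 reads against 374), gave 1.75. With tags of at least 21 nt it was 0.928 for miR-125a-3p, and 30 arms were called down. The same restriction gave a difference of -3.93 percentage points in early 3′ ends of miR-125a-5p, whose early-ending tags it mostly removes, and of -0.0647 in 5′ starts of miR-99b-3p, and the ratio of let-7e-5p to miR-125a-5p was 0.916, an alternative added after seeing the data. At 10 RPM or more, 23 arms were called up and 25 down. With edgeR's exact test, 33 were called up at an assumed coefficient of variation of 0.2, and 5 up and 5 down at 0.4. At 0.2 and 0.4 the lowest p of a member arm was 0.0940 and 0.394 by edgeR's exact test. Both spreads were assumed, and the spread between cultures is not known. The member differences found by Fisher's exact test at any fold were judged against counting error only. Where no cause is given, the cause was not tested. No paired analysis was possible because each condition has 1 library, and for the same reason no replicate could be left out. Members with few reads limit what can be compared: 3 reads are 0.159 RPM with DMSO and 0.142 with AICAR.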
